A study of Homo sapiens with 6 samples.

Results

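The genes of the ubiquitin ligase arm that removes the kinase inhibitor p27, together with related F-box protein genes, were followed in PC3-ML cells treated with an inhibitor of CDK4 and CDK6. They are 7 of the 22375 genes tested: SKP2, CKS1B, CKS2, SKP1, CUL1, FBXW7 and CCNF. Each was read from the brightest transcript cluster annotated with that symbol alone. The genes were grouped by role, with earlier results of these data known. Their share of calls, read beside that of all genes, is therefore a description. PC3-ML cells are a metastatic subline of PC-3, an established line of human prostate carcinoma. Total RNA was measured on 6 arrays, 3 from cells given the DMSO vehicle and 3 from cells given 500 nM PD 0332991 (palbociclib) dissolved in it, all after 24 h of culture. Both groups were the same parental line in serum-containing medium and carried no other alteration named in the labels, so the model is 1 cell line, 1 dose and 1 time. Whether the 3 samples of a group were separate cultures is not stated, so each p-value reflects the spread of these samples alone, and that spread may be technical.

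With the drug, 4 of the 7 genes fell and 1 rose at an adjusted p under 0.05 (limma, over all genes tested), and 2 were not past it. The F-box genes CCNF and SKP2 fell 2.42-fold and 1.93-fold, and the kinase-binding genes CKS2 and CKS1B fell 2.32-fold and 1.32-fold. FBXW7 rose 1.23-fold. The shared scaffold genes CUL1 and SKP1 had log2 changes of -0.19 and -0.01 and did not pass. Over all genes, 11.3% passed, with 5.74% of all genes lower and 5.57% higher.

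SCF ligases are built on the scaffold cullin CUL1, which holds a RING subunit at one end and the adaptor SKP1 at the other. SKP1 docks an interchangeable F-box protein, and that protein chooses the substrate to be marked with ubiquitin. SKP2 is the F-box protein that, together with the small CDK-binding protein CKS1 encoded by CKS1B, recognises phosphorylated p27 (CDKN1B), so that p27 is destroyed and CDK2 is released as cells enter S phase. CKS2 is the close relative of CKS1B, FBXW7 is the F-box protein that targets cyclin E, MYC, JUN and NOTCH1, and CCNF encodes cyclin F, an F-box protein of S and G2 phase that binds no CDK as a partner kinase.

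The promoters of 3 genes that fell are shown because CKS2 and CKS1B share words that SKP2 lacks. They are RefSeq windows of GRCh38.p14 running from 250 bases before to 50 bases after the start site, printed 5′ to 3′ on the gene's strand: CKS2 at chr9:89310945-89311244 (plus strand), CKS1B at chr1:154974431-154974730 (plus strand) and SKP2 at chr5:36151861-36152160 (plus strand). Capitals mark matches, on either strand, to TTTGAA, the core of the cell cycle genes homology region bound by MuvB complexes, and to CCAAT, the Y-box word bound by NF-Y; their reverse complements TTCAAA and ATTGG are capitalised likewise.
CKS2: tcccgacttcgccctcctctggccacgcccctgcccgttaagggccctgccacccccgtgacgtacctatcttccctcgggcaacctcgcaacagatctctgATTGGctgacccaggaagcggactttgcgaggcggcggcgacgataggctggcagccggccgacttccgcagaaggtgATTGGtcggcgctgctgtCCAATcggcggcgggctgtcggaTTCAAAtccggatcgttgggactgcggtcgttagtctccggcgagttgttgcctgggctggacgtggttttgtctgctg
CKS1B: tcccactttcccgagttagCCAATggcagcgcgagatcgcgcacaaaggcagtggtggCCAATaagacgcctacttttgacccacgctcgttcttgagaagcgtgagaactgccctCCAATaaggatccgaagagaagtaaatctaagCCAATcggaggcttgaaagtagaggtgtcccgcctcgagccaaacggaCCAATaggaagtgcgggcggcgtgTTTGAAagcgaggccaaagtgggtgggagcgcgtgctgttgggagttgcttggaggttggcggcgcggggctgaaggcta
SKP2: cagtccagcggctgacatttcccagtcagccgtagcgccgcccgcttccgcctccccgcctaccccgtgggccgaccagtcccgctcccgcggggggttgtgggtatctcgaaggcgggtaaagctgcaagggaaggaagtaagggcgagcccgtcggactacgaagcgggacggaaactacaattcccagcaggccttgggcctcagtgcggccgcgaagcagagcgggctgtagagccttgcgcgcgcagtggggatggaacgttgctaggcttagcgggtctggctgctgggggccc

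CKS2 and CKS1B each held 1 TTTGAA word, and 3 and 5 CCAAT words respectively. The TTTGAA word began 30 bases upstream of the start site in CKS1B and 29 bases upstream in CKS2. In CKS1B and CKS2 the nearest CCAAT word lay at 54 and 52 bases upstream. The SKP2 window held neither word, and none of these 3 windows held an E2F-like word. These are TTCCCGC in its consensus form, TTGGCGC as the usual variant, and both TTCGCGC and the variant TTGCCGC, searched on either strand. The first listed windows of SKP1, CUL1 and FBXW7 held no TTTGAA or CCAAT, and that of SKP1 held 1 E2F-like word, TTGCCGC. CUL1 has 5 listed starts and FBXW7 has 4; among the others, 2 of CUL1 held a CCAAT word and 1 an E2F-like word, and 1 of FBXW7 held both TTTGAA and CCAAT. Of 27305 promoters of this length, the first listed of each gene, 15.4% held TTTGAA, 35.7% CCAAT and 13.1% an E2F-like word. A match is a description of the letters and not a measured binding site.

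**Figure D1:**
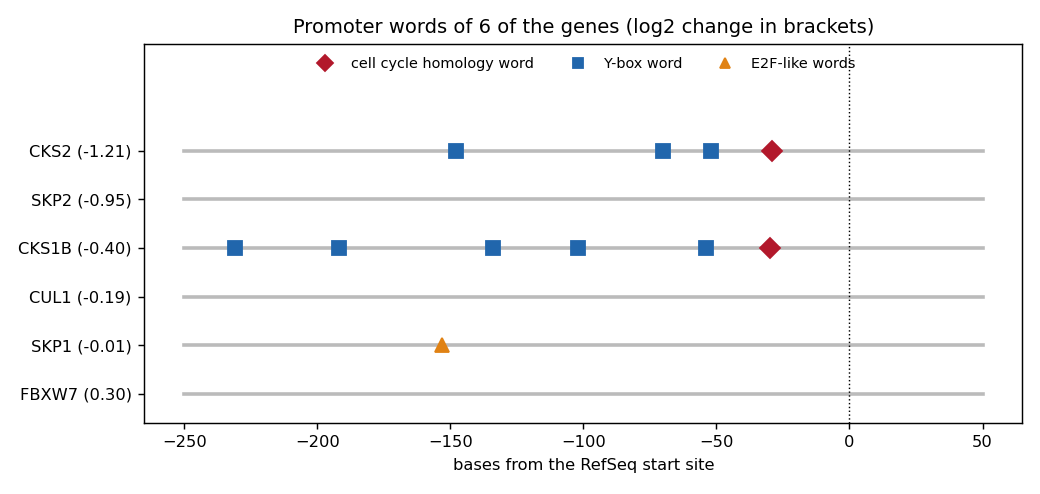
Positions of the words in the first listed promoter of 6 of the genes, in bases from the RefSeq start site (dotted line), ordered by log2 change (in brackets). CKS2 and CKS1B each carry 1 cell cycle homology word downstream of 3 to 5 Y-box (NF-Y type) words, and the other 4 genes carry neither.

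The words were also counted over all genes, as a description chosen after the members' promoters had been read. Only the first listed promoter of each gene was read, so words at other starts, such as those of FBXW7, were not counted. Of the 22375 genes tested, 14630 had a listed promoter, and 6.85% of these were lower and 6.48% higher with PD 0332991. Among the genes that held TTTGAA, 10.7% were lower and 4.92% higher, and among those that held CCAAT, 8.82% were lower and 6.32% higher. Among the 742 genes whose promoter held both TTTGAA and CCAAT, 16.8% were lower and 4.58% higher. Among the 82 genes that held TTTGAA with 3 or more CCAAT words, 41.5% were lower and 1.22% higher, and 28.0% fell at least 2-fold against 1.07% of all genes with a promoter. CKS2 and CKS1B are among those 82 genes and among their lower calls, and the cut of 3 equals the CCAAT count of CKS2. The class is therefore no independent support for the words seen in these members. Where neither word was present, 5.64% were lower and 6.75% higher. The median log2 change of the 82 genes was -0.09, beside 0.02 for all genes with a promoter, so the larger share of lower calls went with only a small shift of the median.

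**Figure D2:**
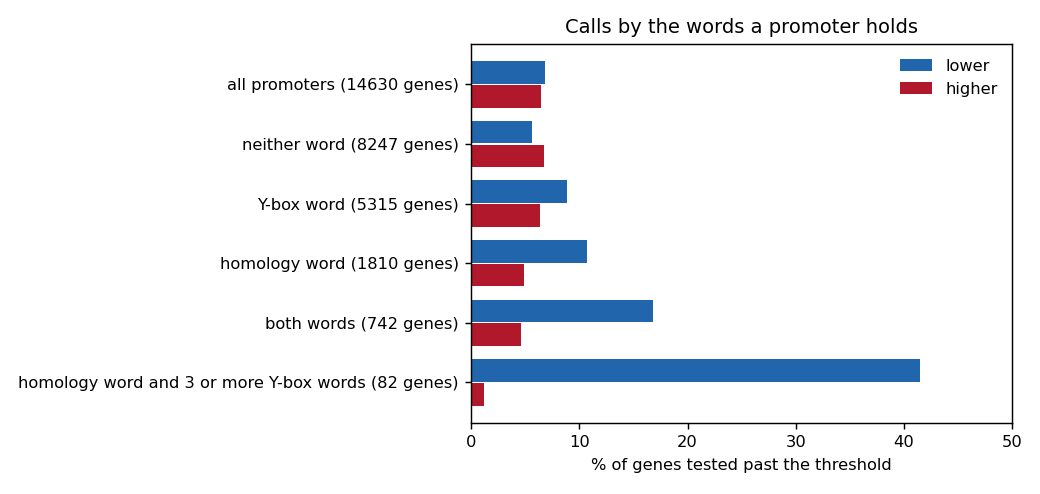
Percent of genes past the threshold (horizontal axis), lower in blue and higher in red, by the words their first listed promoter holds. Classes overlap and the number of genes tested is in brackets. The share of lower calls was 6.85% over all genes with a promoter and 41.5% in the class with the homology word and 3 or more Y-box words. That class holds CKS2 and CKS1B, and its cut of 3 equals the count in CKS2.

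Array medians on the log2 scale were 5.33 to 5.37 over the genes tested and 4.48 to 4.56 over all clusters. The latter were the medians equalised in an alternative below. limma's array weights ran from 0.692 to 1.48. No scan date or other batch is given in the sources used here. Depth has no direct counterpart on arrays; their number, 3 per group, limits the precision. Of the 5 epithelial markers, KRT8, KRT18 and KRT19 lay at percentiles 94.4 to 97.1 of mean level among the genes tested, EPCAM at 65.7 and CDH1 at 62.0. KRT8 (log2 change 0.31, limma adjusted p = 0.0449) and KRT19 (0.41, adjusted p = 0.00612) rose with PD 0332991 and the other 3 did not pass; their part in the results was not tested. The leukocyte, fibroblast and endothelial markers tested, 3 of each, lay at percentiles 13.8 to 36.5, and none of these 9 markers passed the threshold. The luminal prostate markers KLK3 and KLK2 were at percentiles 33.8 and 3.8 and TMPRSS2 at 47.1.

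SKP2 read 12.04, 12.12 and 12.12 on the DMSO arrays and 11.07, 11.13 and 11.24 on the PD 0332991 arrays (log2 expression). Every DMSO value lay above every PD 0332991 value, with a gap of 0.80 between the groups. The mean went from 12.09 ± 0.044 to 11.15 ± 0.0894 (SD, n = 3 each), a log2 change of -0.95 ± 0.0575 (SE; 95% interval -1.08 to -0.81; limma adjusted p = 0.000103). The treated level was 51.8% of the DMSO level. In bulk RNA, fewer cells expressing a gene and less RNA per expressing cell cannot be told apart, which holds for every change given here.

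CKS1B, whose protein completes the surface on which SKP2 binds p27, read 8.64, 8.81 and 8.51 with DMSO and 8.30, 8.22 and 8.23 with PD 0332991. The groups did not overlap, and the gap of 0.21 compares with an SD of 0.149 among the DMSO arrays (n = 3), of which replicate 2 was the highest. The log2 change was -0.40 ± 0.0779 (SE; 95% interval -0.59 to -0.22; limma adjusted p = 0.0190). This call was lost without DMSO replicate 1 (adjusted p = 0.0591), without PD 0332991 replicate 2 (0.0672) or without PD 0332991 replicate 3 (0.0626), and when p-values were adjusted over every cluster of the deposited table (0.0889).

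CKS2, the paralog of CKS1B and likewise a subunit of cyclin-dependent kinase complexes, read 11.42, 11.81 and 11.75 with DMSO and 10.54, 10.35 and 10.45 with PD 0332991. DMSO replicate 1 was the lowest of its group and still lay 0.87 above the highest treated array. The mean went from 11.66 ± 0.213 to 10.45 ± 0.0960 (SD, n = 3 each), a log2 change of -1.21 ± 0.109 (SE; limma adjusted p = 0.000779). The fall of CKS2 was the larger of the 2 on these arrays: the change of CKS1B minus that of CKS2 was 0.81 on the log2 scale (95% interval 0.43 to 1.19; two-sided exact permutation p = 0.1, the smallest that 3 against 3 allows). The change of SKP2 minus that of its partner CKS1B was -0.55 (95% interval -0.86 to -0.23; exact permutation p = 0.1).

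**Figure D3:**
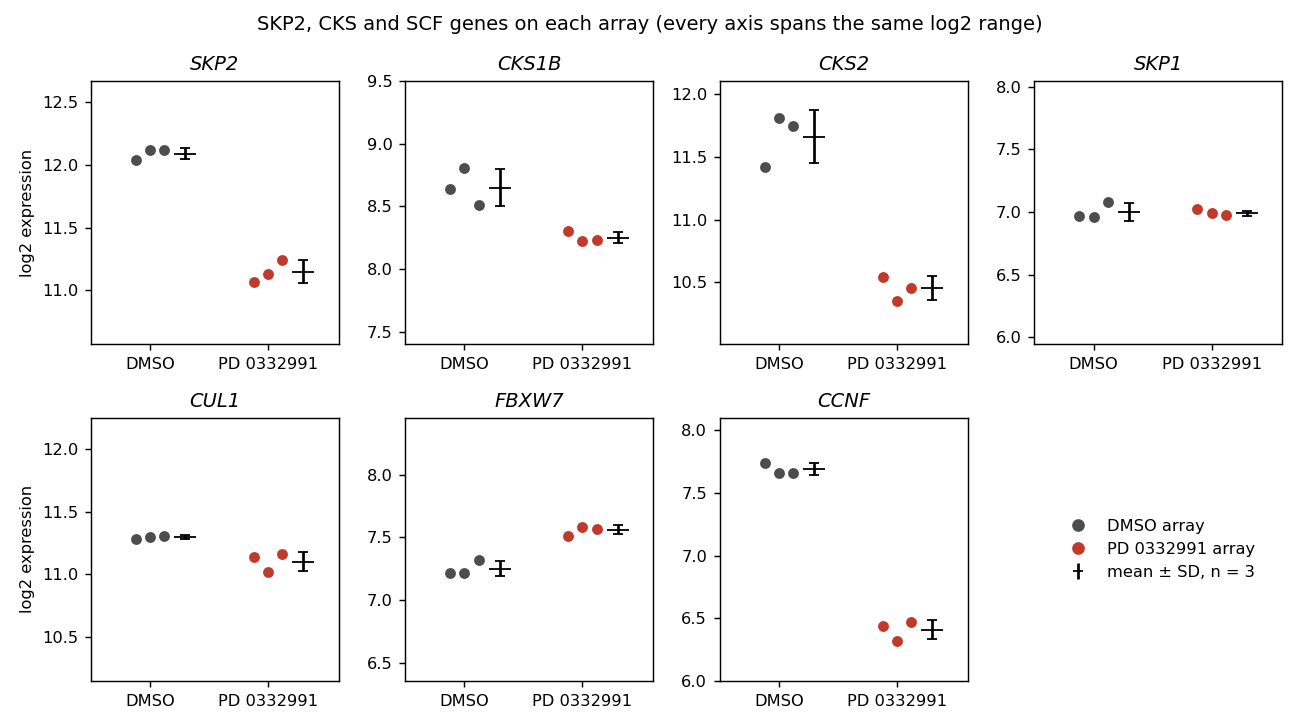
Log2 expression of the 7 genes on each array (points; DMSO grey, PD 0332991 red) with the mean ± SD of 3 arrays beside them; every vertical axis spans the same log2 range. The groups are separate for SKP2, CKS1B, CKS2, CUL1, FBXW7 and CCNF and overlap for SKP1.

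Of the scaffold genes, CUL1 read 11.28, 11.30 and 11.31 with DMSO and 11.14, 11.02 and 11.16 with PD 0332991. The groups did not overlap, which was the case for 6 of the 7 genes and for 29.9% of all genes tested. The log2 change was -0.19 ± 0.0508 (SE; 95% interval -0.31 to -0.07) with a limma adjusted p = 0.0580. CUL1 passed when dim genes were left out (adjusted p = 0.0243), with a trended robust prior (0.0464) and with array weights (0.0474). It did not pass in the other 11 alternatives, whose adjusted p-values reached 0.246.

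SKP1, the adaptor between CUL1 and the F-box protein of an SCF ligase, read 6.97, 6.96 and 7.08 with DMSO and 7.02, 6.99 and 6.98 with PD 0332991. The groups overlapped, and the log2 change of -0.01 had a 95% interval of -0.13 to 0.11 (limma adjusted p = 0.936). The cluster annotated as the pseudogene SKP1P1 was brighter than that of SKP1 on every array. It read 11.58, 11.56 and 11.97 with DMSO and 11.60, 11.62 and 11.45 with PD 0332991. Its log2 change was -0.15 (limma adjusted p = 0.526) and that of SKP1P2 -0.16 (adjusted p = 0.408). How far probes separate SKP1 from these copies, and so how well its cluster reflects the SKP1 transcript, is not given in the sources used here. The change of SKP1 minus that of CUL1 was 0.18 (95% interval 0.03 to 0.33; exact permutation p = 0.1). That interval spanned 0 with the replicate block (-0.14 to 0.51), without DMSO replicate 1 (-0.05 to 0.40) or 2 (-0.05 to 0.36), and without PD 0332991 replicate 1 (-0.04 to 0.41) or 2 (-0.01 to 0.29). RBX1, the RING subunit of the same complex, was not analysed here; the value table ends within chromosome 22 and may be cut short there.

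CCNF, the F-box gene with the largest fall among the 7, read 7.74, 7.66 and 7.66 with DMSO and 6.44, 6.32 and 6.47 with PD 0332991. The gap between the groups was 1.19, and the spread within either group was small (SD 0.0477 and 0.0781, n = 3 each). The log2 change was -1.27 ± 0.0549 (SE; 95% interval -1.40 to -1.14; limma adjusted p = 1.87e-05), which left 41.3% of the DMSO level. The change of SKP2 minus that of CCNF was 0.33 (95% interval 0.11 to 0.54; exact permutation p = 0.1).

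FBXW7, the F-box gene that moved the other way, read 7.22, 7.22 and 7.32 with DMSO and 7.51, 7.58 and 7.57 with PD 0332991. All treated arrays were higher, with a gap of 0.19. The log2 change was 0.30 ± 0.0485 (SE; 95% interval 0.19 to 0.42; limma adjusted p = 0.00939), and the call was lost when p-values were adjusted over every cluster (0.0702). FBXW7 is transcribed from several starts, and 1 cluster value does not separate its isoforms. SKP2 minus FBXW7 was -1.25 (95% interval -1.39 to -1.10; exact permutation p = 0.1); all 5 pairs compared gave the same p, also after Benjamini-Hochberg adjustment over the 5.

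**Figure D4:**
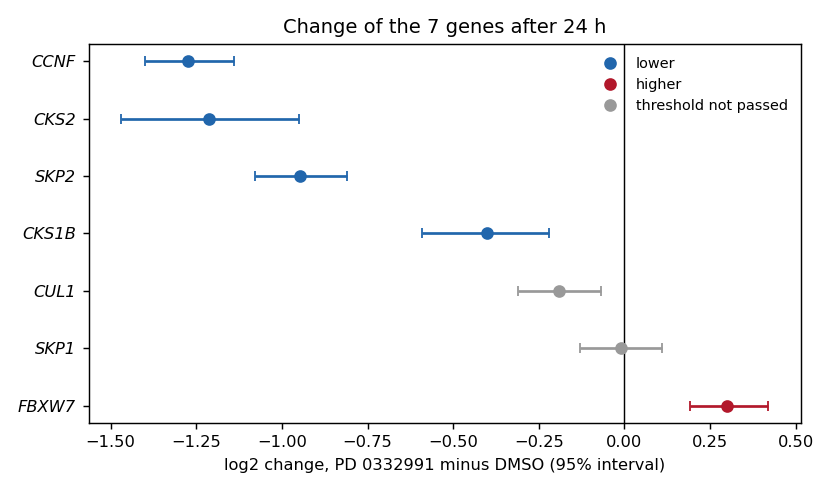
Log2 change of each gene (PD 0332991 minus DMSO, horizontal axis) with its 95% interval from limma; blue points were lower, red higher and grey did not pass the threshold. The intervals run from -1.47 for the lower bound of CKS2 to 0.42 for the upper bound of FBXW7, and that of SKP1 spans 0.

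The genes with the most similar profiles over the 6 arrays, by the root mean square difference of log2 values centred on each gene's mean, were found for each of the 5 genes past the threshold. For SKP2 they were DEPDC1B, the cohesin subunit SMC1A, the spindle checkpoint gene MAD2L1, the microtubule-binding CKAP5 and the kinesin KIF20B, at differences of 0.0287 to 0.0380. For CCNF they were the chromosomal passenger INCENP, the condensin II subunit NCAPG2, the deubiquitinase USP1, the kinetochore gene SKA3 and the nuclease-helicase DNA2 (0.0446 to 0.0555). For CKS2 they were the separase ESPL1, the replication factor CDC45, the histone chaperone NASP, the importin KPNA2 and the cytokinesis gene ECT2, with larger differences of 0.0982 to 0.116. CKS1B was nearest to C4orf46, the heterochromatin protein gene CBX3, GLO1, ISOC1 and TFAP4 (0.0450 to 0.0582). FBXW7 was nearest to LIPA, a lysosomal lipase gene, LOC100996662, THADA, RNF144B and NEDD9 (0.0165 to 0.0219). With 6 arrays in 2 groups, this likeness is mainly a likeness in the size of the treatment difference.

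Other F-box protein genes moved in both directions. Of 66 listed, 61 could be tested, and 6 of them rose, 4 fell and 51 were not past it. The share past was 16.4%, against 11.3% of all genes, with a median log2 change of 0.04 beside 0.02 over all genes. The falls were led by FBXO5, encoding the APC/C inhibitor EMI1, from 7.28 ± 0.0962 to 5.98 ± 0.104 (SD, n = 3 each; log2 change -1.30, limma adjusted p = 6.66e-05). FBXO43, encoding the related inhibitor EMI2, had a change of -0.54 (adjusted p = 0.00133). The largest rise was that of FBXL20, a leucine-rich repeat F-box gene, at 0.64 (adjusted p = 0.000296). Among all 64 F-box genes tested, with SKP2, CCNF and FBXW7 included, the falls of CCNF and SKP2 ranked 2nd and 3rd and the rise of FBXW7 ranked 6th. The count of the other F-box genes past the threshold went from 10 to 5 without DMSO replicate 2, and to 6 without PD 0332991 replicate 1 or without PD 0332991 replicate 2.

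Among other cullins and RING subunits, 1 of 8 tested rose and none fell, so that 12.5% passed against 11.3% of all genes. This was CUL7, a cullin that assembles with SKP1 and the F-box protein FBXW8, at a log2 change of 0.63 ± 0.0422 (SE; limma adjusted p = 0.000166). FBXW8, picked with its value in view, rose by 0.34 (adjusted p = 0.00316). RNF7, the RING subunit used by CUL5, had a change of 0.24 (adjusted p = 0.0843), and CUL5 itself 0.16 (adjusted p = 0.187).

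Of 17 genes listed for ubiquitin and NEDD8 transfer to cullins, 11 could be tested, and 4 of them rose and 1 fell. This is 45.5% past the threshold against 11.3% of all genes, with a list median of 0.03. UBE2D1, UBE2D2, UBE2D3, UBE2L3, ARIH1 and the NEDD8-conjugating gene UBE2M were not tested. NAE1, a subunit of the NEDD8-activating enzyme, fell by 0.39 on the log2 scale (limma adjusted p = 0.0123). The NEDD8-conjugating gene UBE2F (0.30, adjusted p = 0.0250), the NEDD8 ligase components DCUN1D3 (0.33, adjusted p = 0.0252) and DCUN1D5 (0.31, adjusted p = 0.0322) and the ubiquitin-activating gene UBA1 (0.18, adjusted p = 0.0429) rose. These calls were fragile, and none of the 5 passed when p-values were adjusted over every cluster of the deposited table. With equalised array medians, 1 of the 11 passed, a fall, and none of the rises did. With any single array left out, 0 to 3 of the 11 passed: 0 without PD 0332991 replicate 1, 1 without DMSO replicate 1 or PD 0332991 replicate 3, 2 without DMSO replicate 3, and 3 without DMSO replicate 2 or PD 0332991 replicate 2. Of 11 genes of the COP9 signalosome, which removes NEDD8 from cullins, and of the CAND exchange factors, COPS3 fell (-0.56, adjusted p = 0.00333) and the rest did not pass, a share of 9.09% against 11.3% of all genes. The subunit COPS2 changed by 0.30 (adjusted p = 0.0794) and the exchange factor CAND1 by -0.14 (adjusted p = 0.232).

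The transcript of the main SKP2 substrate, p27, did not pass. CDKN1B read 6.82, 6.74 and 6.59 with DMSO and 6.54, 6.57 and 6.61 with PD 0332991, so that the groups overlapped. Its log2 change was -0.14 (95% interval -0.30 to 0.01; limma adjusted p = 0.247). The log2 change of the related inhibitor gene CDKN1A was -0.15 (adjusted p = 0.339), that of CDKN1C -0.12 (adjusted p = 0.161) and that of RBL2, encoding p130, 0.13 (adjusted p = 0.177). Protein levels of p27 and SKP2 were not measured here. Of the 12 SKP2 substrate genes tested, 3 fell and 2 rose (41.7% past, against 11.3% of all genes), with a median of -0.07: the origin gene ORC1 (-1.31), the licensing factor CDT1 (-0.78) and E2F1 (-0.63) were lower, and the antiproliferative gene TOB1 (0.49) and cyclin D1 (CCND1, 0.38) higher. Their adjusted p-values ran from 0.000124 to 0.0138. The call of CCND1 was lost without DMSO replicate 1 or without DMSO replicate 3, and when p-values were adjusted over every cluster.

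Of 11 FBXW7 substrate genes, 2 fell and none rose (18.2% past, against 11.3% of all genes), with a median of -0.05. Cyclin E2 (CCNE2) went from 8.18 ± 0.174 to 5.18 ± 0.0925 (SD, n = 3 each), a 7.98-fold lower level (limma adjusted p = 5.33e-06), and the mitotic kinase AURKA had a change of -1.74 (adjusted p = 9.17e-06). MTOR, next by p, had a change of 0.18 (adjusted p = 0.110). Of the targets introduced above, cyclin E1 (CCNE1) changed by -0.01 (limma adjusted p = 0.900) and MYC by 0.07 (0.553). JUN changed by -0.18 (0.247) and NOTCH1 by -0.08 (0.389), so none of these passed. They were picked with their values in view.

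Substrate genes of cyclin F fell in 10 of 12 cases, against 5.74% of all genes, and none rose, with a median log2 change of -0.81 beside 0.02 over all genes. Most are genes of the division cycle in their own right, and this list, like the others, was chosen with earlier results of these data known. The spindle gene NUSAP1 was 12.92-fold lower, the ribonucleotide reductase subunit RRM2 9.50-fold and the nuclease EXO1 5.30-fold (limma adjusted p-values 3.20e-07 to 6.43e-06). The centriole protein gene CCP110 changed by -0.82 (adjusted p = 6.64e-05), and E2F3 (0.10, adjusted p = 0.268) and FZR1 (-0.14, adjusted p = 0.307) did not pass. CCP110 and E2F3 were picked with their values in view.

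Among genes that control SKP2 or p27 turnover, 8 of 14 tested fell and 1 rose (64.3% past, against 11.3% of all genes), with a median of -0.32. Cyclin A2 (CCNA2), which with CDK2 phosphorylates its targets in S phase, was 10.75-fold lower (limma adjusted p = 3.86e-07), and MYBL2, a partner of the MuvB complex, 8.90-fold lower (adjusted p = 4.00e-07). FOXM1, a transcription factor of the G2 phase programme, read 11.77, 11.80 and 11.72 with DMSO and 10.11, 10.12 and 10.27 with PD 0332991. Its log2 change was -1.60 ± 0.0556 (SE; adjusted p = 7.25e-06). FZR1, encoding the APC/C activator CDH1 that marks SKP2 and CKS1 proteins for destruction, had overlapping groups. RNF123, a subunit of another ligase that acts on p27 in G1, was the gene that rose (0.32, adjusted p = 0.00851) and was picked with its value in view. Adjusted over every cluster, 6 genes of the list fell and RNF123 no longer passed.

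**Figure D5:**
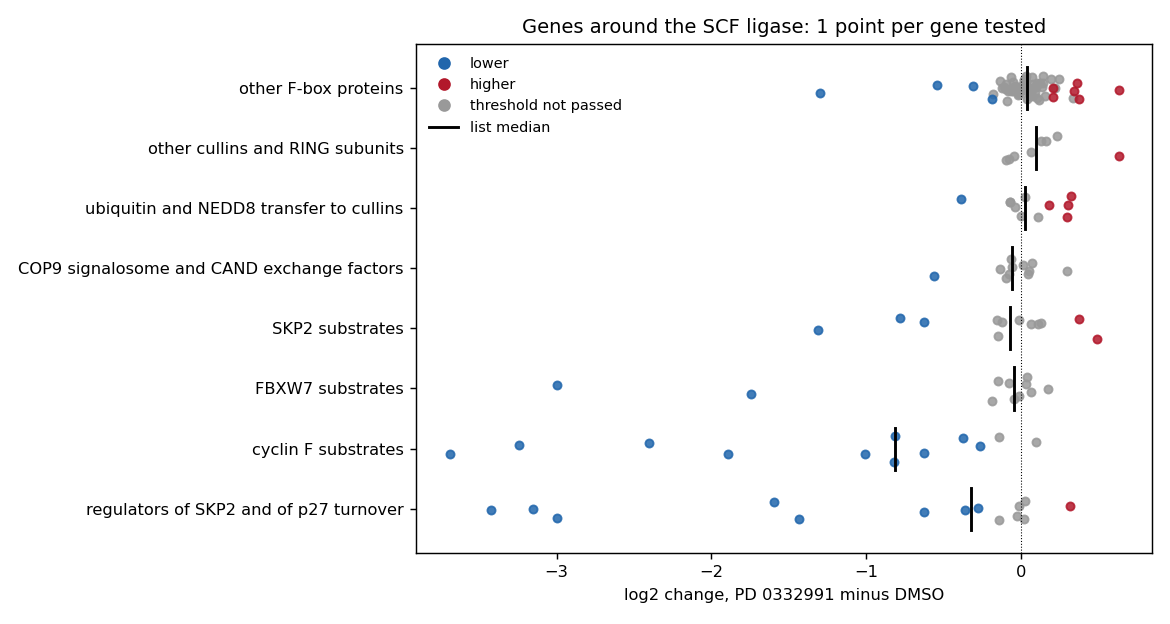
Log2 change (horizontal axis) of every tested gene of the 8 lists around the SCF ligase, 1 point per gene in each list. Genes in more than 1 list, such as E2F1, appear more than once. Blue points were lower, red higher and grey not past the threshold, and black bars are list medians. Cyclin F substrates have a median of -0.81 and regulators of SKP2 and p27 turnover -0.32, while the other lists have medians from -0.07 to 0.10.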

How the data were processed

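Values for each transcript cluster were deposited on what is taken to be a log2 scale, from their range of 2.04 to 19.93; the log base, background correction, normalization and summarisation are not given in the sources used here. The submitters' processing notes name Affymetrix Expression Console. The labels name both a NuGEN amplification and an Affymetrix WT Plus kit. The table held 65535 clusters, the row limit of older spreadsheets, and ends within chromosome 22, so it may be cut short there. Of these, 22685 carried 1 symbol in the platform annotation, updated through Entrez identifiers for 20487; the brightest cluster per symbol by its mean over all arrays left 22375 genes, and clusters with several or no symbols were not tested. Each of the 7 members had 1 such cluster.

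PD 0332991 arrays were set against DMSO arrays by limma 3.58.1 under R 4.3.3 (lmFit and eBayes, 1 mean per group, two-sided, Benjamini-Hochberg over all genes tested), with no minimum level. Differences between the changes of gene pairs used an exact permutation test (SciPy 1.17.1) with intervals from a linear model. The members and lists were chosen with earlier results of these data known. Some genes, such as E2F1, are in more than 1 list, so the counts of the lists are not independent. Named genes were the members, 7 genes fixed for their role, the 3 members of each list with the smallest p, all past the threshold where 5 or fewer were, and the 5 nearest profiles of each called member. Protein sequences were not analysed here. The promoter of CCNF is not reported here. Alternatives were a replicate block, 2 normalizations, a filter on dim genes, a trended robust prior, array weights, averaged clusters, a fit with adjustment over every cluster and leaving out each array. The fit was tested on simulated data for this comparison over 22375 genes, with 50 genes at each log2 change: it called 13 at a change of 0.25, 33 at 0.5, 48 at 1 and 49 at 2, and 10 unchanged genes. Only 200 genes were changed in the simulation, while 11.3% were called in the data, so these rates need not hold for the data.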

Additional observations from a re-analysis of the deposited data

How the results depend on the processing

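SKP2, CKS2 and CCNF kept their direction and stayed past the threshold in all 14 alternatives; their adjusted p-values reached at most 0.00125, 0.00839 and 0.000480. Fitting and adjusting over every cluster of the table left 984 of 2531 genes and 3 of the 7 members past the threshold. CKS1B (-0.40, limma adjusted p = 0.0889) and FBXW7 (0.30, adjusted p = 0.0702) no longer passed. In that setting 4 other F-box genes and 0 NEDD8 transfer genes passed. It changed both the fit and the number of features tested, and which of these lowered the counts was not tested. CUL1 (-0.19) passed with dim genes left out (adjusted p = 0.0243), with the trended robust prior (0.0464) and with array weights (0.0474); the cause was not tested. With dim genes left out, 2 cullin and RING genes and 2 COP9 and CAND genes passed, and with quantile normalization 2 cullin and RING genes did. Equalised array medians left 1 NEDD8 transfer gene, a fall, and split all calls into 1264 lower and 759 higher, against 1284 and 1247. The replicate block left 2 NEDD8 transfer genes and changed no member call; same-numbered arrays had correlations of deviations of 0.02, -0.01 and 0.04, so the numbers were not taken to pair them, and the block gave 1740 calls. Leaving out each array gave 1602 to 1857 genes, 4 to 5 members, 5 to 7 other F-box genes, 0 to 3 NEDD8 transfer genes, and changes of -0.47 to -0.32 for CKS1B. Signal over background was not analysed here, so how far it limits dim genes is not known.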
